A study of Arabidopsis thaliana with 16 samples.

Results

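UMAMIT14 (AT2G39510) and AAP5 (AT1G44100) are 2 amino acid carriers of Arabidopsis thaliana whose transcripts were measured in glu1-2 and wild-type plants, in leaves and in roots. Each is measured by 1 probe set of the Affymetrix ATH1 array, 266965_at for UMAMIT14 and 245740_at for AAP5, among 22266 probe sets tested. The platform annotation used here names neither probe set. Both were chosen by their leaf values, comparing the intensities of the 8 leaf arrays, array by array, with the values that the authors list for genes induced in leaves. The probe set of UMAMIT14 departed from its listed values by at most 0.323 intensity units and that of AAP5 by at most 0.347, within a tolerance of 0.51. The next closest probe sets departed by 10.2 and 22.1 units. Because this table holds only genes induced in leaves, a higher leaf level in glu1-2 was a condition of the choice, and the leaf values are given as a description without a test.

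Plant amino acid carriers fall into several families. The amino acid permeases (AAP) import amino acids into cells together with protons, and AAP5 is known for the uptake of basic amino acids by Arabidopsis roots. The UMAMIT proteins (Usually Multiple Acids Move In and Out Transporters) facilitate movement across the membrane in either direction and are mostly known as exporters. UMAMIT14 has been studied in Arabidopsis for the release of amino acids from the phloem in roots and in seeds.

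The study compared glu1-2, a Col-0 line with a T-DNA insertion in Fd-GOGAT1 (AT5G04140), with the wild type Col-0. Fd-GOGAT1 is a ferredoxin-dependent glutamate synthase, which forms glutamate from glutamine and 2-oxoglutarate. Together with glutamine synthetase it takes part in the reassimilation of ammonium in plastids. There were 4 groups of 4 biological replicates: glu1-2 leaves, wild-type leaves, glu1-2 roots and wild-type roots. All plantlets were 18 days old and had grown in vitro on medium with 3% sucrose and 1650 mg of ammonium nitrate per litre under a 16 h photoperiod. Leaves and roots were harvested separately 2 h after the light came on. The mutant is represented by a single insertion line, which was chlorotic and grew less than the wild type, and the samples are whole organs. In such bulk samples, a change in the share of the cells that express a gene cannot be told apart from a change in the RNA of each cell.

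Values are expression intensities on the linear scale. Means, standard deviations (SD) and differences are on the log2 scale, and every difference is glu1-2 minus wild type unless stated. Leaf arrays had a median intensity of 97 to 102 and root arrays of 106 to 110. It is not stated whether leaf and root arrays were normalized together, which bears on every level set across the organs. The probe set of Fd-GOGAT1 read 29 to 39 in glu1-2 leaves and 1245 to 2472 in wild-type leaves, and 20 to 30 in glu1-2 roots against 31 to 36 in wild-type roots. The glu1-2 root values were under 32, below which signal was not separated from background, and the wild-type root values were close to that limit. The paper calls the reduction in roots more moderate, and significant only at a looser threshold than its 0.01. This probe set was itself located by values that the paper states for Fd-GOGAT1, so that these levels are no independent check of the labels. Of the marker genes listed for other organs and tissues, the annotation named 1 of 8 for leaves, 1 of 8 for roots, 1 of 7 for phloem and 0 of 6 for the stele. The leaf marker RCA (Rubisco activase) was higher in wild-type leaves than in wild-type roots by 3.65 on the log2 scale. The root marker PYK10, a beta-glucosidase of endoplasmic reticulum bodies, differed by -3.19 in the same comparison of leaves minus roots. RCA still read 1445 to 1539 in glu1-2 roots and 877 to 1091 in wild-type roots.

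UMAMIT14 was most abundant in glu1-2 roots. Its intensity there was 383, 377, 561 and 492, against 131, 140, 137 and 139 in wild-type roots. Every mutant array lay far above every wild-type array. The mean was 8.80 ± 0.28 in glu1-2 roots and 7.09 ± 0.04 in wild-type roots (log2, SD, n = 4 each), a difference of 1.71 (standard error, SE, 0.116) or 3.27-fold. This was rank 1 among the 22266 probe sets ordered from the highest difference in roots. The gene was chosen with this difference known, so that no test is attached to it. In roots 2.84% of all probe sets passed in either direction, 1.58% as higher and 1.26% as lower in glu1-2, by limma at a q-value under 0.01.

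In leaves UMAMIT14 was much lower in both genotypes. It read 83, 90, 74 and 75 in glu1-2 leaves, against 47, 53, 39 and 66 in wild-type leaves. The groups did not overlap, but the lowest glu1-2 array and the highest wild-type array were only 8 units apart. The mean was 6.33 ± 0.13 in glu1-2 leaves and 5.65 ± 0.32 in wild-type leaves, a difference of 0.67 (SE 0.141) or 1.60-fold, which ranked 1189 from the highest in leaves. In leaves 27.9% of all probe sets passed and 14.2% were higher in glu1-2.

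AAP5 showed the other pattern, a higher level in glu1-2 leaves and similar intensities of both genotypes in roots. It read 272, 257, 266 and 281 in glu1-2 leaves, against 146, 122, 152 and 159 in wild-type leaves. The groups were well separated. The mean was 8.07 ± 0.05 in glu1-2 leaves and 7.17 ± 0.17 in wild-type leaves, a difference of 0.90 (SE 0.0932) or 1.87-fold, at rank 668.

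The root arrays played no part in the choice of the AAP5 probe set, and here the difference could be tested. AAP5 read 362, 390, 370 and 358 in glu1-2 roots, against 433, 398, 380 and 343 in wild-type roots. The groups overlapped, with the lowest and the highest of the 8 arrays both in the wild type. The mean was 8.53 ± 0.05 in glu1-2 roots and 8.60 ± 0.14 in wild-type roots. The difference of -0.07 (95% interval -0.23 to 0.10) did not pass (limma q = 0.554; exact permutation p = 0.429, two-sided, where 4 against 4 arrays allow no p below 0.0286). The interval leaves out a difference in roots as large as the 0.90 measured in leaves.

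**Figure D1:**
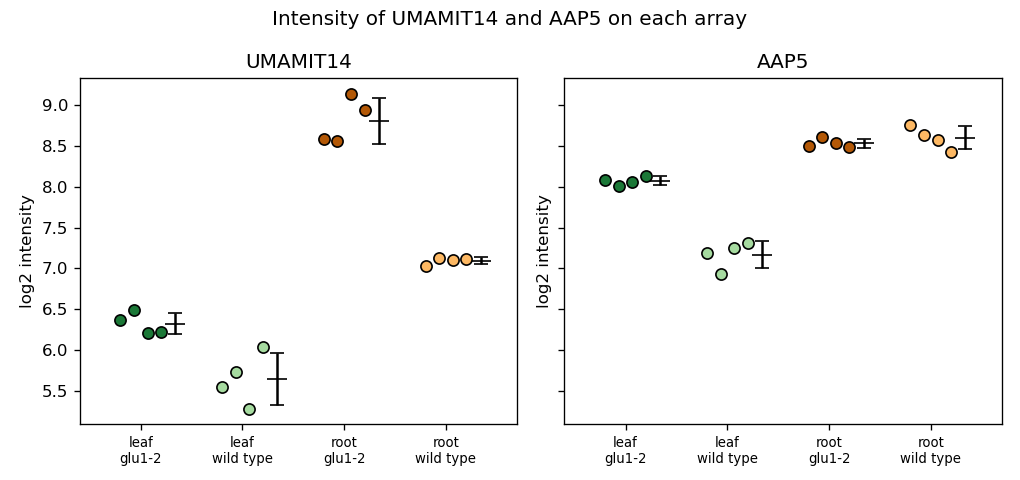
Log2 intensity (vertical axis) of UMAMIT14 and AAP5 on each of the 16 arrays, with points for replicates and bars for mean ± SD of each group of 4. UMAMIT14 stood highest in glu1-2 roots (377 to 561 on the linear scale) and AAP5 was lower in wild-type leaves (122 to 159) than in the other 3 groups.

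Both genes were lower in leaves than in roots of the wild type, by a similar amount. UMAMIT14 differed by -1.44 between wild-type leaves and wild-type roots, 2.72-fold lower in leaves, and AAP5 by -1.43, 2.69-fold lower. In glu1-2 the distance was -2.48 for UMAMIT14, 5.57-fold lower in leaves than in roots, and -0.46 for AAP5, 1.37-fold lower in leaves. The gap between the organs was thus wider in the mutant for UMAMIT14 and narrower for AAP5. The effect of glu1-2 in leaves minus its effect in roots was -1.04 (SE 0.193) for UMAMIT14 and 0.97 (SE 0.122) for AAP5. These comparisons use the leaf values that identified the probe sets and are descriptions without a test.

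In the order of levels, UMAMIT14 ran from glu1-2 roots through wild-type roots and glu1-2 leaves down to wild-type leaves, and no neighbours in this order overlapped. For AAP5 the groups at the top, glu1-2 roots and wild-type roots, overlapped, while glu1-2 leaves and then wild-type leaves lay below them without overlap. The spread between replicates also differed. The SD of UMAMIT14 was larger than that of 98.2% of all probe sets in glu1-2 roots and of 96.5% in wild-type leaves, but in wild-type roots of only 6.23%. For AAP5 these percentiles were 7.61 in glu1-2 leaves, 67.1 in wild-type leaves, 14.7 in glu1-2 roots and 68.5 in wild-type roots.

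A pair of further UMAMIT genes was identified through the same table of genes induced in leaves. UMAMIT29, a carrier known from the release of amino acids in seeds, read 223, 198, 197 and 212 in glu1-2 leaves, against 91, 87, 80 and 105 in wild-type leaves, a difference of 1.20. In roots it read 430, 454, 459 and 403 in glu1-2, against 269, 291, 252 and 230 in the wild type. UMAMIT29 rose in glu1-2 roots by 0.75 (SE 0.0815) or 1.68-fold (limma q = 0.000235; exact permutation p = 0.0286, the smallest that 4 against 4 arrays allow), at rank 75, with no overlap between the groups.

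UMAMIT6 read 151, 145, 156 and 146 in glu1-2 leaves, against 73, 65, 72 and 83 in wild-type leaves, a difference of 1.03. In roots it read 96, 98, 94 and 83 in glu1-2, against 109, 121, 139 and 101 in the wild type. All glu1-2 root arrays were below all wild-type root arrays, and yet the difference of -0.33 (95% interval -0.55 to -0.12) did not pass (limma q = 0.0582; exact permutation p = 0.0286). Of the 1362 probe sets matched to the table of genes induced in leaves, 29 were higher in glu1-2 roots (2.13%) and 34 lower (2.5%), with a median difference of -0.03. Among the 3 UMAMIT genes matched through that table, the root differences were thus 1.71 for UMAMIT14, 0.75 for UMAMIT29 and -0.33 for UMAMIT6.

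**Figure D2:**
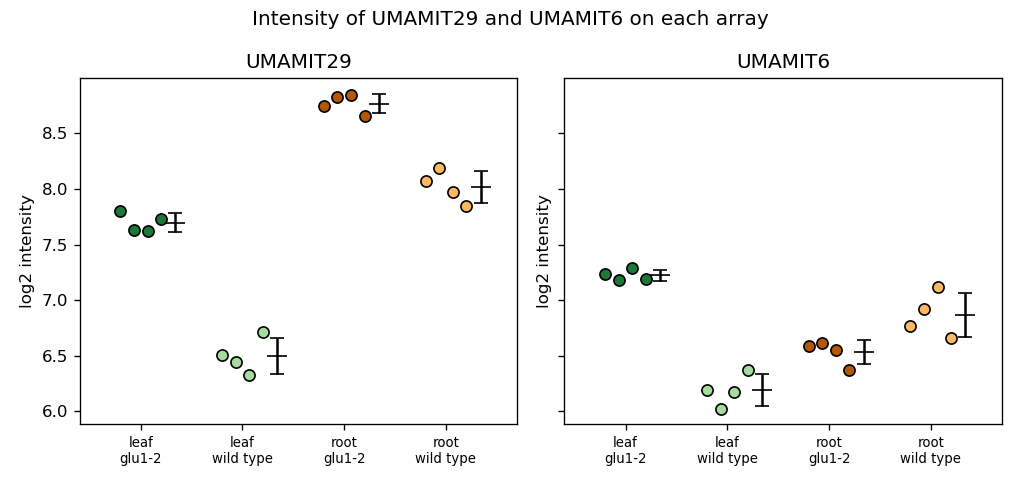
Log2 intensity (vertical axis) of UMAMIT29 and UMAMIT6 on each of the 16 arrays, with points for replicates and bars for mean ± SD of each group of 4. UMAMIT29 was higher in glu1-2 roots (403 to 459 on the linear scale) than in wild-type roots (230 to 291), whereas UMAMIT6 read 83 to 98 in glu1-2 roots and 101 to 139 in wild-type roots.

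Of the named markers, SWEET11 (1 of 7 listed for phloem) and RCA (1 of 8 for leaves) also rose in glu1-2 roots. The phloem marker SWEET11, a sucrose exporter of phloem parenchyma, read 370, 375, 367 and 345 in glu1-2 roots, against 190, 251, 196 and 230 in wild-type roots, a rise of 0.76 (SE 0.0898; limma q = 0.00039). Like RCA, SWEET11 was higher in wild-type leaves than in wild-type roots, by 2.455 (limma q = 1.74e-11), so that its rise is not separate from that of the leaf marker. RCA rose in glu1-2 roots by 0.64 (SE 0.076; limma q = 0.000407). The paper reports that the photosynthesis genes affected in roots of the mutant were all induced. Whether the rise of RCA was part of that response or came from leaf RNA in the root samples was not tested. PYK10 read 9892 to 12683 in glu1-2 roots and 10556 to 12852 in wild-type roots, a difference of 0.01 (limma q = 0.743). In leaves the same markers gave differences of -0.16 for SWEET11 (limma q = 0.0928), -0.20 for RCA (limma q = 0.059) and -0.13 for PYK10 (limma q = 0.232). After renewed quantile normalization the leaf difference of RCA was 0.00489 (limma q = 0.44). UMAMIT14 itself read 39 to 90 over the 8 leaf arrays and 131 to 140 in wild-type roots, organs whose joint normalization is not stated. The part of phloem or leaf RNA in the root values of UMAMIT14 and UMAMIT29 was not tested.

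The other amino acid carriers were taken from lists of the AAP, lysine-histidine, proline, cationic, glutamine dumper and UMAMIT families, with 88 genes in all. Only 6 of these have a probe set in the platform annotation, besides the 4 genes described above. The 6 are 5 of 10 genes of the lysine-histidine list and 1 of 5 of the proline list (AT1G08230). The annotation named 0 genes of the AAP, cationic, glutamine dumper and UMAMIT lists, so that the counts below do not describe those families. AAP1, AAP4, AAP6, LHT1 and BAT1 are among those without a named probe set and were not analysed here. The paper reports AAP1, AAP4 and AAP6 as moderately lower in leaves of the mutant, where it reports AAP5 and BAT1 as induced. In roots of the mutant it reports AAP4 and LHT1 as lower, and AAP1 and BAT1 as unaffected. Among the AAP genes it reports only AAP4 as affected in roots, so that AAP5 was already unaffected there in its account of the same arrays. The counts for the 6 genes cover none of these carriers. Of the 6 genes, 0 passed as higher and 2 as lower in glu1-2 leaves (limma, q under 0.01), beside 14.2% and 13.7% of all probe sets. The median difference of the 6 was -0.26, against -0.02 for all probe sets, and 3 of them had an unadjusted p under 0.05.

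AT1G25530 read 216, 238, 223 and 224 in glu1-2 leaves, against 311, 317, 292 and 370 in wild-type leaves, and fell by 0.51 (SE 0.0886; limma q = 0.000345). AT1G08230 read 31, 32, 31 and 37 in glu1-2 leaves, against 45, 43, 48 and 57 in wild-type leaves, and fell by 0.55 (SE 0.103; limma q = 0.000597). Groups did not overlap in either gene, although AT1G08230 was close to an intensity of 32, below which signal was not separated from background. AT1G47670 read 169 to 255 in glu1-2 leaves and 254 to 306 in wild-type leaves, and its difference of -0.39 did not pass (limma q = 0.0115). It passed in 7 of 16 alternative analyses, for example without the second glu1-2 leaf array (-0.49, limma q = 0.00224). AT1G48640, AT1G67640 and AT1G71680 had means under 32 in all 4 groups.

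In roots, 0 of the 6 genes passed in either direction by limma, with 1 at an unadjusted p under 0.05 and a median difference of -0.07, against 0.01 for all probe sets. That gene was AT1G25530, named here after its values were seen, with a root difference of -0.21 (limma q = 0.092). For the effect in leaves minus that in roots, 0 of 6 passed by limma, beside 25.8% of all probe sets (13% higher and 12.8% lower), with 2 at an unadjusted p under 0.05. Between wild-type leaves and wild-type roots 4 of 6 passed, 2 higher and 2 lower in leaves, beside 75.2% of all probe sets, 36.9% as higher and 38.2% as lower. Both genes called higher in leaves were limited by background. AT1G67640 averaged 20.8 in wild-type leaves and 16.0 in wild-type roots, both under 32, and AT1G08230 averaged 48.2 in wild-type leaves and 18.8 in wild-type roots, under 32 in roots. AT1G47670 and AT1G25530 were lower in wild-type leaves than in wild-type roots, by -1.39 and -0.70, as UMAMIT14 and AAP5 were.

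**Figure D3:**
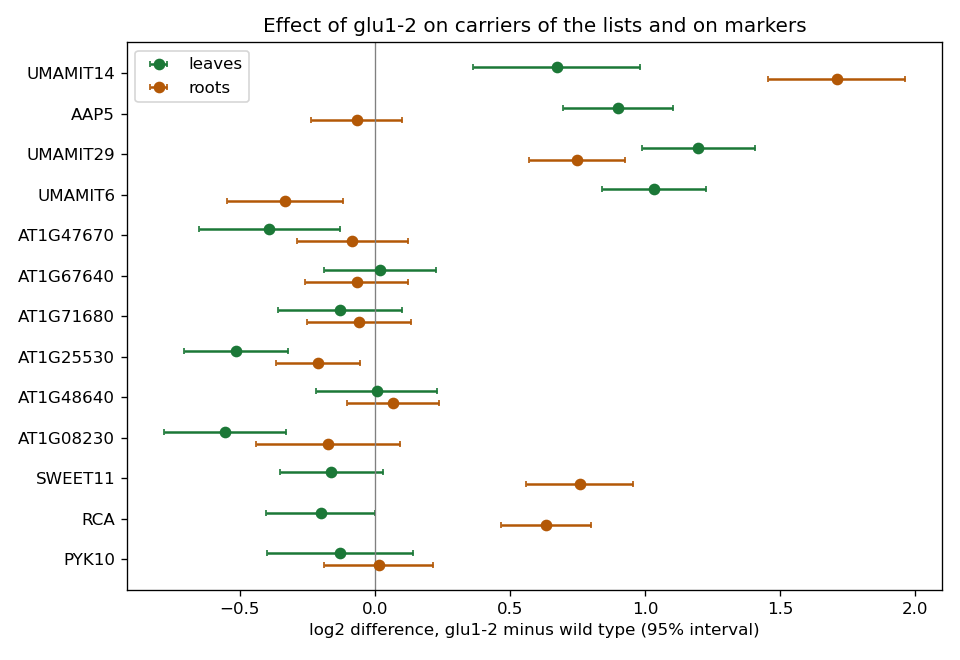
Log2 difference, glu1-2 minus wild type (horizontal axis), in leaves and in roots for the carriers and for the markers SWEET11, RCA and PYK10, with bars for 95% intervals. UMAMIT14 had the highest root difference (1.71), and AAP5 and UMAMIT6 were higher in glu1-2 in leaves (0.90 and 1.03) but not in roots (-0.07 and -0.33).

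Genes with a pattern like that of each carrier were sought by Pearson's r of log2 intensity over the 16 arrays, among 9214 probe sets with exactly 1 annotated gene and a mean of at least 32 in some group. The arrays share organ and genotype, so that r mostly reflects the 4 group means. For UMAMIT14 the closest were AT5G53820 (r = 0.964), AT1G67750 (0.959), AT1G68040 (0.956), BGLU47 (AT4G21760; 0.954) and AT1G30515 (0.948). All 5 had their highest mean in glu1-2 roots. The root differences were 0.99 for AT5G53820, 0.44 for AT1G67750, 0.75 for BGLU47 and 1.17 for AT1G30515. AT1G68040 averaged 59.8 in glu1-2 roots and 20.8 in wild-type roots, where signal was not separated from background, so that no size of its difference is given. AT5G53820 and AT1G68040 also averaged under 32 in both leaf groups.

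For AAP5 the closest were AT4G39955 (r = 0.991), AT3G03610 (0.985), AT4G19880 (0.985), AT3G44190 (0.982) and AT1G09300 (0.982). AT4G39955 read 190, 183, 183 and 193 in glu1-2 leaves, against 102, 94, 113 and 125 in wild-type leaves. In roots AT4G39955 read 227, 247, 224 and 248 in glu1-2, against 246, 245, 251 and 220 in the wild type. All 5 were lowest in wild-type leaves, with leaf differences of 0.57 for AT1G09300 to 1.72 for AT4G19880 and root differences of -0.18 for AT3G44190 to 0.03 for AT1G09300.

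**Figure D4:**
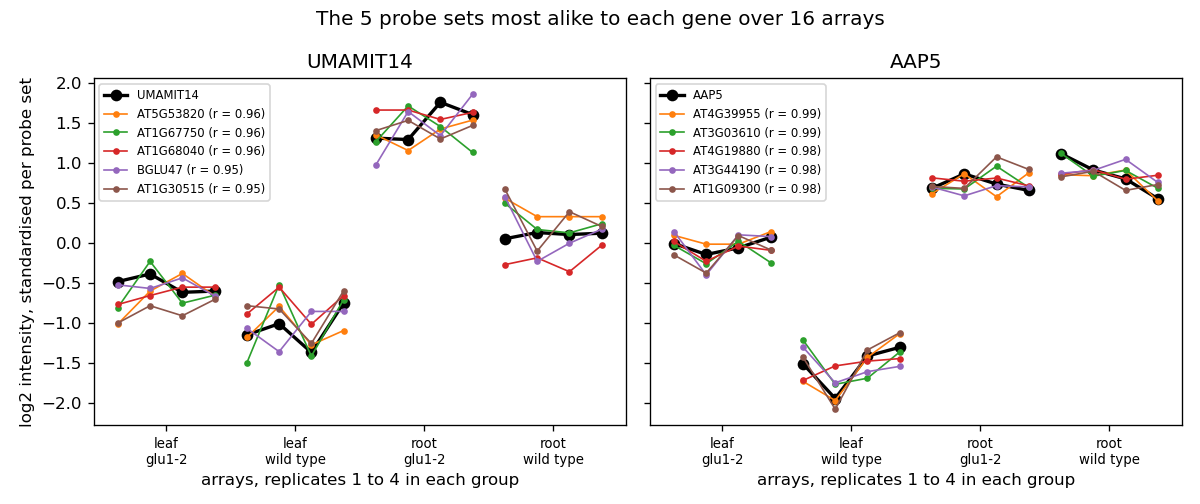
Log2 intensity of UMAMIT14 and AAP5 (black) and of the 5 probe sets most alike to each, standardised per probe set (vertical axis), over the 16 arrays (horizontal axis) in their 4 groups. The genes alike to UMAMIT14 peaked in glu1-2 roots, and those alike to AAP5 were lowest in wild-type leaves.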

How the data were processed

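RNA of leaves and roots was hybridised to 16 ATH1 arrays. The authors computed intensities from the scans by RMA, with quantile normalization, and deposited them as whole numbers on the linear scale. They were taken to log2 here without further normalization. Of 22279 probe sets, 13 controls were left out. The platform annotation names 1 gene for 13216 probe sets, and 624 more were named only by matching the authors' leaf values of 1369 induced genes. The paper counts more genes induced in leaves than these 1369, so that further induced carriers may be missing here. Means under 32 were taken as not separated from background (30.6% of values).

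Each organ was fitted alone, glu1-2 against wild type, unpaired, with limma 3.58.1 in R 4.3.3, and passed at a Storey q under 0.01. Differences between organs were a contrast over 16 arrays. Single values had two-sided exact permutation tests (scipy 1.17.1). On simulated data with 200 of 22266 probe sets changed, 84% of log2 changes of 1 were found in leaves and 97% in roots. Fewer probe sets changed there than passed in the data (27.9% in leaves, 2.84% in roots). The q-value depends on that share, so that these rates need not hold for the data. The number of arrays limits precision.

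The genes named are both carriers, listed carriers that passed, carriers named in the paper, and the 5 probe sets most alike to each carrier. AT1G47670 and genes under background were named after their values were seen. Members and lists were chosen with earlier results of these data known. A test of UMAMIT14 in leaves was planned only if the annotation named its probe set. Each result was recomputed in 1 fit of all arrays, with a replicate block, with a trend of variance on intensity and robust moderation, after renewed quantile normalization, after a shift to a common median, without the 0.25 of probe sets of lowest intensity, with Benjamini-Hochberg adjustment, at q under 0.05, and without each array in turn.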

Additional observations from a re-analysis of the deposited data

Results flagged for a closer look

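The effect of glu1-2 on the markers SWEET11 and RCA differed between organs by a contrast over 16 arrays. It was lower in leaves than in roots by -0.92 for SWEET11 (SE 0.127; limma q = 5.64e-06) and by -0.84 for RCA (SE 0.12; limma q = 9.07e-06), with glu1-2 above wild type on 4 of 4 root arrays.

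UMAMIT6 was higher in glu1-2 than in wild-type leaves on all 4 arrays and lower in glu1-2 than in wild-type roots on all 4 arrays, a difference between organs of 1.37. The same held for AT4G19880 (1.81) and AT3G44190 (1.47) against the wild-type mean of each organ, which are among the genes alike to AAP5. These differences were not tested, since leaf values or the likeness to AAP5 chose the genes.

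Single arrays lay far from the other 3 of their group in 6 of 92 groups of 4 arrays examined, where chance alone gives about 5%. In glu1-2 roots, PYK10 read 9892 on the array of replicate 4 against 12328 to 12683 on the others, AT3G03610 288 against 257 to 259, and AT3G44190 829 against 884 to 893. In glu1-2 leaves, AT3G44190 read 466 against 616 to 639. In wild-type roots, AT5G53820 read 54 against 46 on the others, and AT1G71680 15 against 13, under background. No group of UMAMIT14 or AAP5 was among these.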

How the results depend on the processing

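Of 677 alternative values for 41 results, 647 were labelled the same. For tested results this meant the same direction and side of the threshold. For untested results it meant the same direction and a shift smaller than the within-group SD. Counts, and the number of most alike probe sets kept, had to stay within 1.5-fold. Leaving out single arrays gave 1.60 to 1.79 for UMAMIT14 in roots, 0.55 to 0.80 in leaves, 0.82 to 0.95 for AAP5 in leaves and -0.12 to -0.01 in roots (limma q 0.276 to 0.718 over all alternatives). UMAMIT29 in roots passed in all 16 alternatives (limma q 1.65e-06 to 0.00291) and UMAMIT6 in none (0.0317 to 0.129). Listed carriers whose effect differed between organs numbered 1 with arrays shifted to one median and 2 at q under 0.05, against 0. Of the genes under background, the leaf difference of AT1G48640 was -0.047 and that of AT1G67640 -0.035 with arrays shifted to one median, against 0.0072 and 0.0193. Leaving out single arrays gave -0.079 to 0.075 for AT1G48640 in leaves (negative also without glu1-2 array 1, -0.035), -0.026 to 0.071 for AT1G67640 in leaves (negative also without wild-type array 1 or 4, -0.021) and -0.096 to 0.0197 for AT1G71680 in roots, positive only without glu1-2 array 4. The leaf difference of RCA was 0.00489 after renewed quantile normalization, and leaving out single arrays gave -0.0334 to 0.0987 for PYK10 in roots. The cause was not tested. SWEET11 and RCA passed in roots in all 16 alternatives. Of the 5 probe sets most alike, 2 to 5 remained for AAP5 (2 without wild-type leaf array 2) and 3 to 5 for UMAMIT14.

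Deviations of same-numbered glu1-2 and wild-type arrays correlated at -0.04 to 0.13, over 0.1 in 2 of 8 pairs. Among 4 candidates each, 4 of 8 glu1-2 arrays correlated best with their own number, more than an even spread over the candidates would give. These values do not settle whether the numbers pair the arrays, and the main fits were left unpaired. With the replicate block, higher and lower probe sets numbered 2931 and 2821 in leaves, against 3154 and 3054 without, and 146 and 103 in roots, against 352 and 280. With the block AAP5 in roots stayed at -0.07 (limma q = 0.524), listed carriers lower in leaves numbered 3, against 2, with AT1G47670 added (limma q = 0.00435), and no other call named here changed. Most listed carriers have no named probe set here, and the rounding of intensities to whole numbers limits probe sets near background.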
